A study of Mus musculus with 2 samples.

Results

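The 10 genes described here encode the pathway by which a cell shows fragments of its own proteins to CD8+ T cells: the heavy chains H2-K1 and H2-D1, their light chain B2m, the peptide transporter subunits Tap1 and Tap2, the loading factor Tapbp, the immunoproteasome subunits Psmb8, Psmb9 and Psmb10, and the transactivator Nlrc5. They were named as a pathway, but with earlier results of these data known. Every gene probe whose RefSeq accession belonged to one of them was read. All 10 were on the array, by 12 probes of 39429, and each had a probe well above background in both conditions. They are 10 of 32448 genes or identifiers with a probe, of which 19743 were well above background on at least 1 array and 17242 on both.

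RNA came from bone marrow-derived macrophages (BMDMs), which were grown with M-CSF from the marrow of 8-week-old male mice carrying floxed Crif1 alleles (Crif1 f/f). No Cre driver is named for the mice of the arrays, and both conditions share the floxed background. One culture condition was left untreated and the other received IL-4, the type 2 cytokine that drives M2-like polarization, for 18 h. Each condition was hybridized to 1 single-color Agilent array, and how many mice the RNA of an array represents is not given in the sources used here. The comparison asks how IL-4 changed the RNA of these macrophages.

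In class I presentation, the proteasome cuts cytosolic proteins into peptides, the TAP transporter moves them into the endoplasmic reticulum, and tapasin helps load them onto heavy chains that are folded with β2-microglobulin. Interferon-γ, in part through IRF1, is the best known inducer of the pathway, and it replaces the catalytic subunits of the constitutive proteasome with those of the immunoproteasome. NLRC5 is recruited to the promoters of class I genes, of B2m and of several of their partner genes through a shared module of an X box with a neighboring CCAAT-type Y box. IL-4 signals mainly through STAT6, which favors palindromes with a longer spacer than that of the gamma-activated site.

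The 250 bases before the annotated start of selected members are shown here, from RefSeq on GRCm38.p6, because the regulators described below act at such sites. In these lines capitals mark TGACG, the core of the X2 element, and CCAAT, the Y box, which reads ATTGG on the other strand. In B2m they also mark the core of the interferon-stimulated response element, GAAANNGAAA. The stretch between Tap1 and Psmb9, whose starts lie 225 bases apart and point away from each other, is given once for both genes. H2-K1 is on chr17:34000334-34000583 on the minus strand (the second of its 2 annotated starts), H2-D1 on chr17:35262844-35263093 on the plus strand, B2m on chr2:122147437-122147686 on the plus strand, and the Tap1 and Psmb9 stretch, read on the Tap1 strand, on chr17:34187331-34187555.
H2-K1: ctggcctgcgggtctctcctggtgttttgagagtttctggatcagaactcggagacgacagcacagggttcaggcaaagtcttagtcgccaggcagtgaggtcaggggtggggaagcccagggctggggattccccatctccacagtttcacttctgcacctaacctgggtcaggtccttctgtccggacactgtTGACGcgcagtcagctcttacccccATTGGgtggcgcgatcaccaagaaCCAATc
H2-D1: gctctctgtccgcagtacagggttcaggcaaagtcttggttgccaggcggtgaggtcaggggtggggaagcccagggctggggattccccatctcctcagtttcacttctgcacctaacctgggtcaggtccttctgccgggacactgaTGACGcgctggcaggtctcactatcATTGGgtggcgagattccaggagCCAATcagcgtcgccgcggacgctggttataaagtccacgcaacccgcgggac
B2m: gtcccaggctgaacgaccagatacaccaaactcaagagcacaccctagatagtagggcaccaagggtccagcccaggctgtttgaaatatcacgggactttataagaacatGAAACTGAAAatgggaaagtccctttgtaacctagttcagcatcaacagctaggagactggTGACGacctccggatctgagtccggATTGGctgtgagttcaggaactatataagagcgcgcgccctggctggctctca
Tap1 and Psmb9: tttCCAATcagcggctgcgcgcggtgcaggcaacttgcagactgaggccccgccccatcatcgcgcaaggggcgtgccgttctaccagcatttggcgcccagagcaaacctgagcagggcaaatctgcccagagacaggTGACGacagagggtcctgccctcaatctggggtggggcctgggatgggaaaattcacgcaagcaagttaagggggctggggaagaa

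The heavy and light chain windows share more than the letters. In H2-K1, H2-D1 and B2m, TGACG was followed on the same strand by ATTGG after exactly 20 bases, an arrangement held by 30 of 32851 promoter windows of that length, or 0.0913%. Those 30 windows belonged to 26 genes, which also included the nonclassical heavy chain gene H2-M3. Tap1 and Psmb9 have TGACG in their shared stretch, at 86 to 82 bases before the Tap1 start, but no ATTGG at that distance from it. Alone, TGACG was present in 17.8% and CCAAT in 33.8% of all windows, on either strand, and in 5 and 6 of the 8 members with an entry in the promoter table. TGACG and the spacing were chosen after these sequences had been read. The letters are a description of the windows and were not tested for binding.

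The windows of the catalytic subunits Psmb10 and Psmb8 held neither TGACG nor CCAAT, and they are shown because they hold the motifs of STAT proteins. Capitals mark TTCNNNNGAA in Psmb10, the spacing that STAT6 prefers, at 67 to 58 bases before the start, and TTCNNNGAA in Psmb8, the gamma-activated site, at 97 to 89 bases before it. Psmb10 is on chr8:105938393-105938642 on the minus strand and Psmb8 on chr17:34197945-34198194 on the plus strand.
Psmb10: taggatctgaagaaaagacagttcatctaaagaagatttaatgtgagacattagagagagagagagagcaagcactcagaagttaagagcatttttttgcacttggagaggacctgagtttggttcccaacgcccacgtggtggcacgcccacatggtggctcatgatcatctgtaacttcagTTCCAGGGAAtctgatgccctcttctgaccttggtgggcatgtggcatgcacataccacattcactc
Psmb8: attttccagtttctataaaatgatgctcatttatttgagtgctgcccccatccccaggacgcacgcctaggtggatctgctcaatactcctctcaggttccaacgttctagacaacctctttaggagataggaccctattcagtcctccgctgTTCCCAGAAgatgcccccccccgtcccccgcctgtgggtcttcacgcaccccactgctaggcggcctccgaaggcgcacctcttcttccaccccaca

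The Psmb10 window was the only one among the 8 members with TTCNNNNGAA, which occurred in 5.85% of all windows, and the Psmb8 window the only one with TTCNNNGAA, which occurred in 7.02%. The core GAAANNGAAA was in the B2m window alone among members and in 2.98% of all windows. Tapbp had 2 Y boxes and none of the other motifs. Of the constitutive catalytic subunits, Psmb5 had TGACG at 1 place and Psmb6 at 2. Tap2, Nlrc5 and the constitutive subunit gene Psmb7 were not analysed for motifs.

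Across the array, spots for genes were well above background in 59.8% of cases in the untreated sample and 57.4% in the IL-4 sample, and none was saturated. The IL-4 array was somewhat brighter, with a 75th percentile of 9.94 against 9.84 on the log2 scale, so intensities are given as measured while log2 differences, IL-4 minus untreated, were taken after that percentile was subtracted from each array. The difference of all genes measured on both arrays had a median of -0.01, and its 10th and 90th percentiles were -0.43 and 0.34. With 1 array per condition there is no spread between cultures and no test. The error quoted with a difference is the SD of the log2 difference between the arrays over repeat spots of probes of similar brightness. It had a median of 0.065 over 256 probes printed 10 times. It covers variation between spots within the arrays only, and not variation between hybridizations or cultures. All 6 macrophage markers with a probe were well above background in both samples, with a median difference of -0.71 and a range from -1.23 for Fcgr1 to 0.17 for Adgre1. B cell markers were below background, 0 of 3 in either sample, as were the T cell genes Cd3d and Cd8a, although Cd3e and Cd4 were measured. A second Cd4 probe was above background in the untreated sample only. All 3 stromal markers were well above background, with intensities of Col1a2 of 233342 and 234332 and a difference of -0.09, and of Col1a1 and Pdgfra of -0.34 and 0.51. The part of stromal RNA in the members' signal was not tested. Of the NK cell markers, Ncr1 was above background in the untreated sample only. The neutrophil markers Mpo, Elane and Camp were measured in both samples, with differences of 0.30, -0.23 and -0.61. Of the eosinophil and mast cell markers, Cpa3 was at least 3.51-fold lower after IL-4, while Prg2 differed by 0.37. Epx and Mcpt4 were not above background. Among dendritic cell markers, Siglech had intensities of 29067 and 31659 and a difference of 0.02. A second Siglech probe was not above background in either sample, so the Siglech probes disagreed. Zbtb46 differed by -0.52, and Flt3 and Xcr1 were not above background. The part of these cells in the members' signal was not tested. Fewer cells of a type and less RNA per cell cannot be told apart in bulk RNA. The IL-4 response itself was large, with Arg1, the arginase of alternatively activated macrophages, going from an intensity of 84.9 to 19688, a log2 difference of 7.76.

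Against that response, the class I pathway moved little, with Psmb10 higher and Nlrc5 lower by more than the other members, each read from 1 spot per array. The median log2 difference of the 10 members was 0.08, beside -0.01 for all genes measured. Differences lay above 0 in 7 members and below 0 in 3, a share to be read beside 47.4% above 0 among all genes measured on both arrays. No member reached a 2-fold difference in either direction, against 2.86% of genes that were higher by that much and 4.47% that were lower. At a smaller threshold of 0.32 on the log2 scale, 1 member was higher, beside 12.5% of all genes, and 1 was lower, beside 21.5%.

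**Figure D1:**
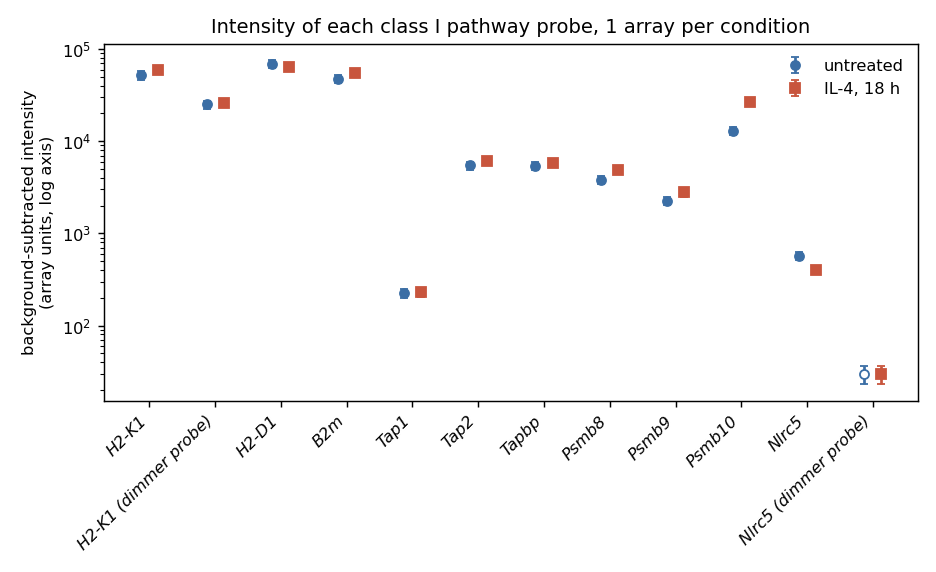
Background-subtracted intensity (log axis) of the 12 probes of the class I pathway on the untreated array (blue circles) and the IL-4 array (red squares). Error bars are the scanner software's error for the probe, an open symbol marks a probe not well above background, and the Psmb10 probe shows the widest separation, from 13020 to 26944.

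Psmb10 encodes MECL-1, the immunoproteasome subunit with trypsin-like activity. Its probe had an intensity of 13020 in untreated BMDMs and 26944 after IL-4. The difference was 0.95 ± 0.052 (SD between spots, from 22 probes), or 1.93-fold higher, and it was the widest separation in the pathway, at percentile 97.7 of all genes and 96.8 of the 804 genes of similar signal. The other immunoproteasome subunits moved in the same direction by less. Psmb8, the chymotrypsin-like LMP7, had intensities of 3801 and 4899, and the difference was 0.27 ± 0.052, or 1.20-fold higher. Psmb9, which encodes LMP2, had 2266 and 2791, and the difference was 0.20 ± 0.052, or 1.15-fold higher. Both differences exceeded the spot error, and they stood at percentiles 86.2 and 81.2 of all genes.

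The subunits that these replace in the constitutive particle show how far the shift was particular to the immunoproteasome. Psmb5, the counterpart of Psmb8, had intensities of 55713 and 74844 and a difference of 0.33, and a second, dimmer Psmb5 probe gave 0.20. Psmb6, the counterpart of Psmb9, had 45341 and 56713 and a difference of 0.22. Psmb7, the counterpart of Psmb10, had 4940 and 5617 and a difference of 0.09. The difference of Psmb8 minus that of Psmb5 was -0.06 ± 0.065, and that of Psmb9 minus that of Psmb6 was -0.02 ± 0.065, both within the spot error. The error of the bright Psmb5 and Psmb6 probes in these was 0.039, the same value as for H2-K1, which rests on 3 probes. Psmb10 minus Psmb7 was 0.86 ± 0.073, so among the 3 exchangeable positions only that of Psmb10 and Psmb7 separated beyond the spot error.

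Most genes of the wider proteasome had small differences above 0 at the main scaling. Of 45 proteasome genes outside the 10 members, all were measured, 40 had a difference above 0, beside 47.4% of all genes, and 34 lay above the median of genes of similar signal. Their median was 0.15, with 5 higher and 0 lower by 0.32 or more. The share higher was near the 12.5% of all genes, and the 0 lower stands beside 21.5%. The 11 other subunits of the 20S core had a median of 0.15 and ranged from -0.12 to 0.23, with none past 0.32. The 22 subunits of the 19S cap, which recognizes ubiquitinated proteins, had a median of 0.07 and ranged from -0.15 to 0.34, with 1 past 0.32, Psmc2, whose second probe read 0.0028. These medians moved with the scaling, to 0.055 and 0.0062 under quantile normalization and to 0.47 and 0.39 under spike-in scaling. Relative to the median of all genes they ranged from 0.070 to 0.20 for the 20S list and from 0.020 to 0.15 for the 19S list.

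Among the activators and assembly factors, the median of 9 genes was 0.21. Psme3, which encodes the nuclear activator PA28γ, had intensities of 3493 and 7769 and a difference of 1.05, the only one of the 45 above that of Psmb10. The assembly chaperone genes Psmg3 and Psmg1 followed with 0.69 and 0.42. Psme1 and Psme2, which encode the interferon-inducible activator PA28αβ, had intensities of 7440 and 9243 and of 28086 and 34937, and differences of 0.21 and 0.22. These lay within the spot error of the difference of Psmb9 and below that of Psmb10.

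**Figure D2:**
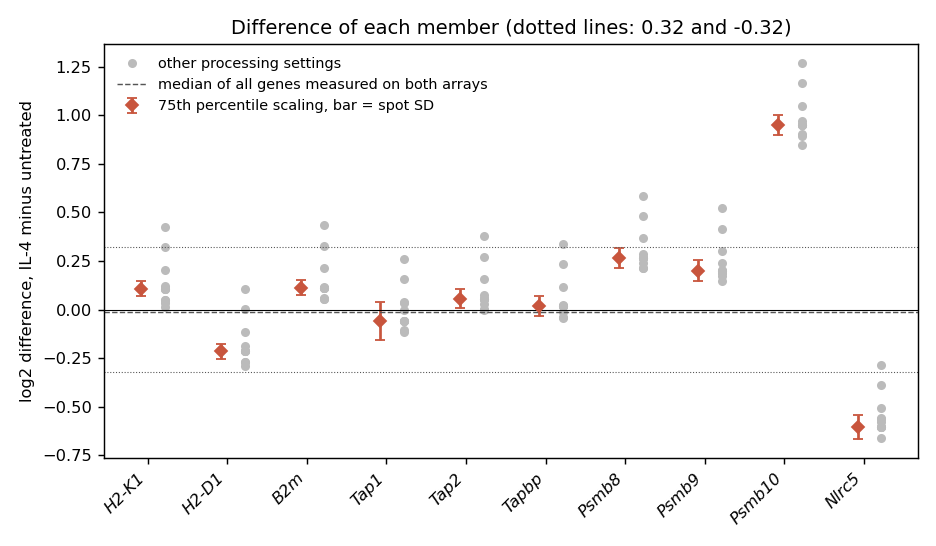
Log2 difference, IL-4 minus untreated, of the 10 members after 75th percentile scaling (red diamonds, bars are the SD between spots) with the values under other processing settings (gray points); the dashed line is the median of all genes. Psmb10 lies at 0.95 and Nlrc5 at -0.60, beyond the dotted lines drawn 0.32 above and below 0, and the other 8 lie between them.

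The surface molecules themselves went different ways by small amounts. H2-K1, the classical heavy chain gene of the K locus, was read by a probe in 10 spots, which had a mean intensity of 51949 in untreated BMDMs, between 49256 and 53591, and of 59905 after IL-4, between 56581 and 61872. These intensities did not overlap between the arrays, but the IL-4 array was brighter overall and the ranges overlapped once both were scaled. After scaling the 10 spot differences ran from 0.05 to 0.19 around a mean of 0.11 ± 0.039 (SD between spots), or 1.08-fold higher. A dimmer H2-K1 probe had 25100 and 26143, and its difference was -0.04 ± 0.052, so the probes disagreed in sign. B2m, the invariant light chain, had intensities of 47640 and 55198, and the difference was 0.11 ± 0.039. H2-D1, the heavy chain gene of the D locus, had 68867 and 63636, and was the only one of these 3 genes lower in intensity after IL-4. The H2-D1 difference was -0.21 ± 0.039, or 1.16-fold lower, at percentile 3.89 of the 360 genes of similar signal, although it was 0.0010 under median scaling and 0.11 under spike-in scaling. The error of 0.039 rests on 3 probes only and equals the H2-K1 probe's own SD. B2m and H2-D1 were each read from 1 spot per array, so they have no spread of their own. Classical and nonclassical heavy chain genes are closely alike in sequence, so the signal of such a probe can include RNA of a related gene, and the probe sequences were not used here.

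The transporter and the loading factor barely differed. Tap1 was read by 10 spots with intensities of 212 to 242, mean 224, in untreated BMDMs and of 214 to 245, mean 230, after IL-4. These ranges overlapped almost fully, and the difference was -0.06, between -0.17 and 0.07 over spots. The spot error here was 0.097, and the probe's own SD between spots was 0.068. Both describe single spots and not the error of a mean over 10 spots. Tap2, the other subunit of the transporter, had 5455 and 6078, with a difference of 0.06 ± 0.050. Tapbp, which bridges the transporter and the heavy chain, had 5403 and 5860, with a difference of 0.02 ± 0.050. Neither lay far from the medians of genes of similar signal, 0.05 and 0.04, and the sign of Tap1, Tap2 and Tapbp depended on how the arrays were scaled.

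Nlrc5, the class I transactivator, was lower. Its brighter probe had an intensity of 570 in untreated BMDMs and 402 after IL-4. The difference was -0.60 ± 0.062 (SD between spots, from 61 probes), or 1.52-fold lower, at percentile 5.24 of all genes and 4.15 of the 1978 genes of similar signal. A second Nlrc5 probe was near background, with 29.8 and 29.7, and passed the background flag in the IL-4 sample only, so it gave no fold. The genes with an X2 and Y box arrangement, H2-K1, B2m and H2-D1, differed by 0.11, 0.11 and -0.21, and H2-M3, of the same arrangement, by -0.0021.

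**Figure D3:**
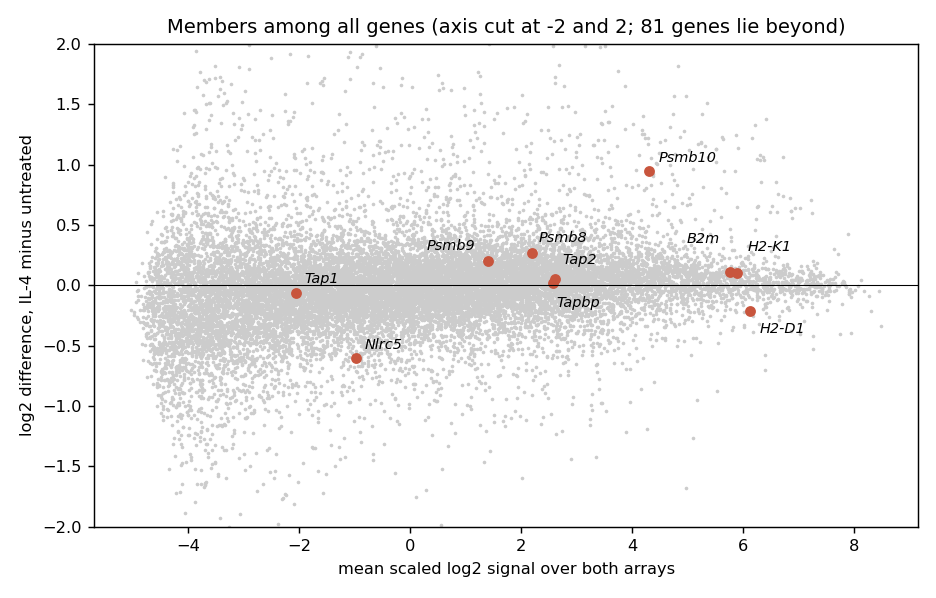
Mean scaled log2 signal over both arrays (horizontal axis) against the log2 difference, IL-4 minus untreated (vertical axis), for all 17242 genes measured on both arrays (gray) and the 10 members (red); 81 genes lie beyond the vertical range. Psmb10 sits near the upper edge of genes of its brightness and Nlrc5 and H2-D1 near the lower edge of theirs, while the other 7 lie in the main body.

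Genes that act next to the members in loading and trimming showed no difference of 0.32 or more on the log2 scale at the main scaling. Among all genes 12.5% were higher and 21.5% lower by as much. The loading and trimming list held 12 genes, all measured, with a median of 0.14 and 9 above 0. That median was 0.058 under quantile normalization, but 0.35 under median scaling and 0.46 under spike-in scaling, both past 0.32. Relative to the median of all genes it ranged from 0.072 to 0.17. The highest were Thop1 with 0.26, Lap3 with 0.26 and Erap1, the endoplasmic reticulum aminopeptidase that trims peptides to fit class I, with 0.25 ± 0.155. The lowest were Npepps with -0.14, Ide with -0.12 and Blmh with -0.09, all peptidases of the cytosol.

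Nonclassical and class I-like heavy chains differed in both directions. Of 27 genes on this list, 21 had a probe, 16 were measured on both arrays and 2 on the untreated array only, and the median of the 16 was -0.09, which was above 0 without scaling and under median and spike-in scaling. Relative to the median of all genes it ranged from -0.14 to -0.036 over 9 alternatives. By 0.32 or more, 2 of the 18 were higher, beside 12.5% of all genes, and 6 were lower, beside 21.5%. H2-Q8 went from 473 to 723, a difference of 0.51, and Hfe, the iron regulator that resembles class I, from 3756 to 5690, a difference of 0.50. H2-T10 followed with 0.23.

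On the lower side, Mr1, which presents vitamin B metabolites to mucosal-associated T cells, went from 288 to 203, a difference of -0.61. H2-Q2 went from 37162 to 26639, a difference of -0.58, with -0.24 from its second probe, and H2-Q7 from 37601 to 29766, a difference of -0.44. Procr, the endothelial protein C receptor, differed by -0.47. H2-Q1 and H2-T3 were well above background only in untreated BMDMs, at intensities of 44.7 and 43.9, and were at least 1.72-fold and at least 1.69-fold lower after IL-4. H2-T23, which encodes the Qa-1 molecule seen by inhibitory NK cell receptors, had 36841 and 36232 and a difference of -0.12.

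Regulators of the pathway and of interferon signaling held larger differences. Of 22 such genes, 18 were measured on both arrays, with a median of 0.12, which was -0.02 without a filter on dim probes and in the deposited processed values. By 0.32 or more, 6 were higher, beside 12.5% of all genes, and 1 was lower, beside 21.5%. Socs1, the feedback inhibitor of JAK signaling, went from 242 to 5376, a difference of 4.37, and Jak2 from 1518 to 3694, a difference of 1.18. Irf2 differed by 0.64. Irf1, the factor that drives the immunoproteasome after interferon-γ, went from 6175 to 10075, a difference of 0.61 ± 0.051, or 1.52-fold higher. The genes of interferon-β and interferon-γ were not well above background in either sample.

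The subunits of the X box factor RFX and of the Y box factor NF-Y, the proteins with which NLRC5 assembles, had differences on both sides of 0. Rfxap went from 77.7 to 57.2, a difference of -0.54 ± 0.196, and Rfxank differed by -0.18 ± 0.067. Rfx5 was near background in both samples. Of the NF-Y subunits, Nfya differed by 0.50, the 3 probes of Nfyb by 0.17, 0.09 and 0.07, and the probes of Nfyc by -0.15 and 0.04.

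Genes known to respond to interferon differed in both directions. Of 25 on this list, 20 were measured on both arrays and 2 on 1 array, with a median of 0.09 that ranged from 0.035 to 0.41 over the alternatives. By 0.32 or more, 10 were higher, beside 12.5% of all genes, and 4 were lower, beside 21.5%. The guanylate-binding protein gene Gbp5 went from 54.0 to 165, a difference of 1.51, Usp18 from 85.2 to 250, a difference of 1.45, and Zbp1 from 229 to 658, a difference of 1.42, although a second Zbp1 probe gave 0.18. Lower were Cxcl9, seen only in untreated BMDMs at 57.1 and at least 2.09-fold lower after IL-4, Ifit2 with -0.67 and Gbp2 with -0.50. A second Cxcl9 probe, also seen in untreated BMDMs only, had a difference of -1.85 or lower.

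**Figure D4:**
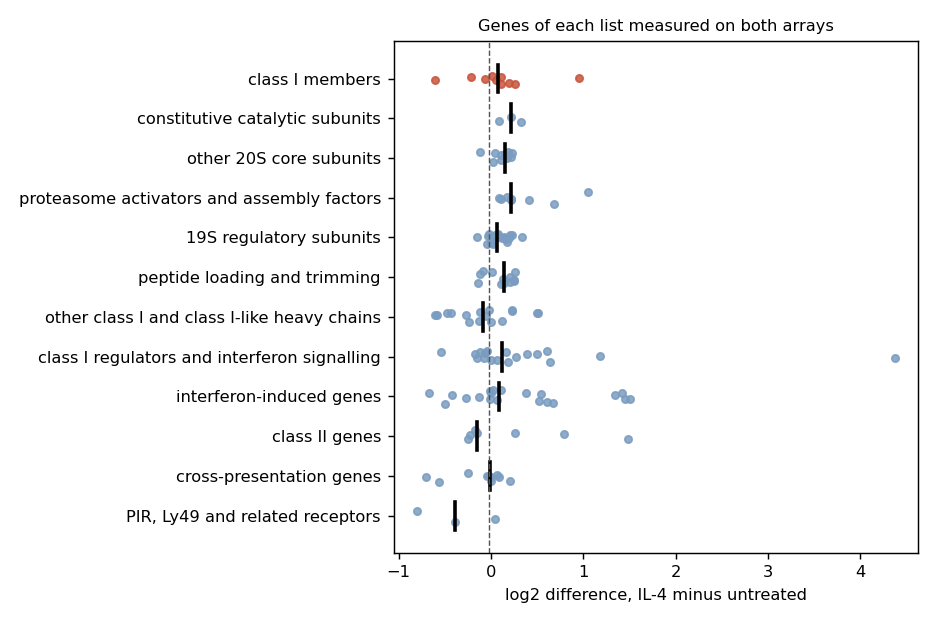
Log2 difference, IL-4 minus untreated, of the genes of each list measured on both arrays (points), with the list's median (black bar) and the median of all genes (dashed line). The 3 proteasome lists beside the 19S cap have medians of 0.15 to 0.22, and the single point at 4.37 is Socs1.

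Genes of class II presentation, by which macrophages show peptides to CD4+ T cells, differed in both directions. Of 11 genes, 7 were measured on both arrays and 2 on 1 array, and the median was -0.15, which turned to 0.064 under median scaling and 0.17 under spike-in scaling. The α and β chains of the peptide-binding molecules were slightly lower at the main scaling, with H2-Aa going from 2121 to 1941, a difference of -0.23, H2-Eb1 differing by -0.17 and H2-Ab1 by -0.15. The genes of the peptide exchange factor DM were higher, with H2-DMa going from 1065 to 3204, a difference of 1.49, and H2-DMb1 from 4456 to 8267, a difference of 0.79. H2-DMb2 was above background after IL-4 only, at least 1.66-fold higher. Cd74, the invariant chain, went from 16027 to 20621, a difference of 0.26, and H2-Ob was at least 1.42-fold lower. Ciita, the class II transactivator and a relative of Nlrc5, was dim, at 51.6 and 46.4, and its difference of -0.25 ± 0.229 lay close to the spot error.

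Psmb9, Tap1, Psmb8 and Tap2 lie next to each other in the class II region of chromosome 17, and in gene order they sit between the DM genes and the class II chains. Along the 26 protein-coding genes from Tapbp to H2-Eb1, of which 22 were measured on both arrays, the difference was 1.49 for H2-DMa and 0.79 for H2-DMb1, then 0.20 for Psmb9, -0.06 for Tap1, 0.27 for Psmb8 and 0.06 for Tap2, and then -0.15, -0.23 and -0.17 for H2-Ab1, H2-Aa and H2-Eb1. The proteasome genes and the transporter genes thus alternate in position, and the higher values went with the proteasome genes. The divergent neighbors Tap1 and Psmb9, which share the stretch printed above, differed by -0.06 and 0.20. The 6 members in this segment had a median of 0.08 and the 16 other genes measured there 0.18.

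**Figure D5:**
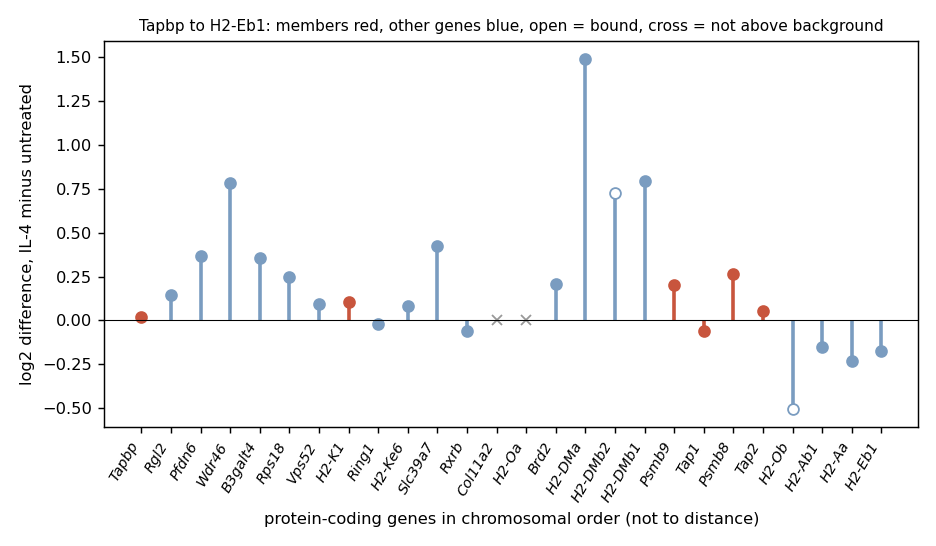
Log2 difference, IL-4 minus untreated, of the 26 protein-coding genes from Tapbp to H2-Eb1 in chromosomal order (equal spacing, not distance), with the 6 members in red, other genes in blue, bounds as open symbols and genes not above background as crosses. H2-DMa stands highest at 1.49, followed by H2-DMb1 at 0.79 and Wdr46 at 0.78, the members lie between -0.06 and 0.27, and the class II chain genes lie just below 0.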

How the data were processed

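The authors deposited scanner output of Agilent Feature Extraction 10.10.1.1 for 1 single-color array per condition, with spot intensity deposited after background subtraction and within-array detrending and without scaling across arrays. Spot flags from the same software were taken as deposited (other columns of that output). A second deposited file holds processed log2 values of both arrays, whose normalization is not given in the sources used here. For the 12 member probes the difference between its columns lay within 0.00056 of the log2 difference after 75th percentile scaling.

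Control spots and outlier-flagged spots were left out, log2 spot values were averaged per probe, and each array's 75th percentile was subtracted. A probe was well above background when most of its spots were flagged so, and a gene was read from its brightest probe. A gene above background on 1 array only gives a bound, computed against the higher of the other array's lowest signal well above background and the probe's own signal there. RefSeq accessions matched 27229 probes to 20656 symbols. Probe annotation of the array refers to mm9, while promoters were read from a RefSeq table of GRCm38.p6, with its own coordinates.

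With 1 array per condition no test was run, and genes past 2-fold, or past 0.32 on the log2 scale, were counted among 19743 genes. The number of arrays limits the precision. Genes of similar signal lay within 0.5 log2 units, and spot errors are medians over probes within 1 log2 unit. Members and lists were chosen with earlier results of these data known. All members were named, and from each list mainly the 3 genes with the largest difference in each direction, with a fixed set including Psmb5, Psmb6, Psmb7, Psme1, Psme2, Irf1, Ciita, H2-T23 and Arg1, apart from an item not reported here. Other genes named, such as H2-M3 and the DM and RFX genes, were chosen after their values were seen. Counting was tested on simulated data with known changes. Python 3.11.15, pandas 2.3.3, R 4.3.3 and limma 3.58.1 (normexp with an offset of 50, quantile and cyclic loess) were used.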

Additional observations from a re-analysis of the deposited data

How the results depend on the processing

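No paired analysis was possible because a lone array stands for each group. The scaling of the arrays set the level of the members. It moved the median of all genes from -0.01 to 0.20 under median scaling, 0.085 without scaling and 0.31 under spike-in scaling (7 probes), and the members' median from 0.08 to 0.30, 0.18 and 0.40. That median was 0.0060 under quantile normalization and 0.026 with the percentile taken over probes that passed the background flag in both samples. Members at least 2-fold higher numbered 1 under median scaling, without scaling and under spike-in scaling. Members higher by 0.32 or more on the log2 scale numbered 4, 2 and 7 under these settings, and members lower by as much 0 under spike-in scaling. Psmb10 ranged from 0.85 to 1.27 and Nlrc5 from -0.66 to -0.28 over 11 alternatives. Relative to the median of all genes, over 9 alternatives, Psmb10 lay 0.86 to 1.02 above it, Psmb8 0.23 to 0.33 and Psmb9 0.18 to 0.29, while Nlrc5 ranged from -0.59 to -0.52 and H2-D1 from -0.28 to -0.14. Tap1 and Tapbp had either sign relative to it. The cause of these shifts was not tested. Near background, as for the dimmer Nlrc5 probe, no fold could be measured.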

Other observations

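Among 6 receptor genes of the PIR, Ly49 and related families, some of whose products bind class I molecules, 5 had a probe. Of these, 3 were measured on both arrays and 2 in untreated BMDMs only. By 0.32 or more on the log2 scale, 4 were lower, beside 21.5% of all genes, and 0 higher, beside 12.5%. Klra2, a Ly49 family receptor gene, went from an intensity of 214 to 26.3, which was not well above background, and was at least 8.23-fold lower. Pirb, the paired inhibitory receptor that binds class I, went from 22831 to 18633, a log2 difference of -0.39 ± 0.052. Pilra differed by -0.80, and its other probes gave -1.26 and -1.06. Klrb1b, seen in untreated BMDMs only, was at least 1.81-fold lower. Lilrb4a had 55111 and 60947 and a difference of 0.05, with 0.22 from its second probe. The NK cell marker Ncr1 was also above background in the untreated sample only, at 40.6, while Klrb1c and Gzma were not above background in either, and their part in the Klra2 and Klrb1b signals was not tested.

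Genes of cross-presentation, by which peptides of ingested proteins reach class I, had a median of -0.01 over 10 genes measured on both arrays. The median was 0.090 without scaling, 0.20 under median scaling and 0.31 under spike-in scaling, but -0.095 under quantile normalization. By 0.32 or more, 3 of the 11 with a probe were lower, a bounded gene included, beside 21.5% of all genes. None was higher by as much, beside 12.5%, although a second, dimmer probe of Stx4a read 0.41. Both lower genes with a full measurement belong to the phagocyte NADPH oxidase. Ncf1 went from 4981 to 3280, a difference of -0.70, and Cybb from 2470 to 1788, a difference of -0.57. Rab27a, a small GTPase of vesicle transport, was seen in untreated BMDMs only and was at least 1.53-fold lower.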
